A study of Mus musculus with 32 samples.

Results

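Transcripts of 9 myelin genes (Mbp, Mog, Mag, Cnp, Mobp, Cldn11, Ermn, Mal and Opalin) were followed in RNAseq libraries of microglia from tau transgenic and wild-type mice. The genes were taken as a fixed list and all 9 were found among the 18588 genes of the expression table through their Entrez numbers. rTg4510 mice carried both the human tau (P301L) gene behind a tetracycline-responsive element and a CaMKIIα-controlled transactivator, which drives tau in forebrain neurons, and not in microglia or oligodendrocytes by design. Wild-type (WT) littermates carried neither transgene and are labelled as strain 129/FVB F1. All mice were female and were 2, 4, 6 or 8 months old. Each library came from the pooled forebrains of 8 to 10 animals, from which CD11b-positive cells were collected on MicroBeads after a Percoll step for removing myelin. Of 32 libraries, 4 per genotype and age, 28 were kept by the study and are used here, so that a group holds 4 libraries at 2 and 6 months and 3 libraries at 4 and 8 months.

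Myelin is the multilayered membrane that oligodendrocytes wrap around axons in the brain. Its proteins are made in oligodendrocytes, while microglia engulf myelin and its debris, so a microglia preparation can hold myelin RNA from attached fragments or other cells, or RNA taken up by the microglia. MBP holds the cytoplasmic faces of the membrane together, MOBP is a second basic protein of compact myelin, and MAL is a small proteolipid that travels with myelin lipids. Claudin 11 (Cldn11) forms the tight junctions between myelin layers. MOG sits on the outermost surface, MAG on the innermost surface facing the axon, and the enzyme CNPase (Cnp) lies in the channels of cytoplasm. Ermin (Ermn) binds the actin cytoskeleton of oligodendrocytes, and opalin is a membrane protein of the myelin loops. These are expected sources of the RNA from background knowledge, and the libraries do not show which of them gave the signals reported here.

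Oligodendrocytes switch their myelin genes on together with the transcription factors SOX10 and MYRF. The 250 bases before the start of 8 members were therefore searched on both strands for a MYRF motif (CTGGCAC or CTGGTAC), a SOX box (AACAAT), an E-box (CAGCTG) and a GC box (GGGCGG). The MYRF motif was found in 3 of 8 members (Cnp, Mag and Mog), and in 5.93% of the 32851 promoters of the annotation. The GC box was found in 1 of 8 (Cnp) against 32.7% of all promoters, and the SOX box and the E-box in 0 of 8 against 9.42% and 13%. The promoters with the MYRF motif are shown because they share a feature that the choice of genes did not use. The promoter of Mobp, without any of the motifs, is shown beside them because Mobp was the member with the largest genotype difference at 6 months. Sequences are RefSeq, build GRCm38.p6, 5′ to 3′ on the strand of the gene, and capitals mark the MYRF motif and, in Cnp, also the GC boxes near the end.
Mog (chr17:37023399-37023648, minus strand): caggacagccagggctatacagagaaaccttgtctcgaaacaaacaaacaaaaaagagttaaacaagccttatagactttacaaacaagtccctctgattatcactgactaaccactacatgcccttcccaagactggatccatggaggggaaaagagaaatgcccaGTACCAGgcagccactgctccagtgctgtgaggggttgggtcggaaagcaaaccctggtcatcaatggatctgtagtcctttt
Mag (chr7:30914923-30915172, minus strand): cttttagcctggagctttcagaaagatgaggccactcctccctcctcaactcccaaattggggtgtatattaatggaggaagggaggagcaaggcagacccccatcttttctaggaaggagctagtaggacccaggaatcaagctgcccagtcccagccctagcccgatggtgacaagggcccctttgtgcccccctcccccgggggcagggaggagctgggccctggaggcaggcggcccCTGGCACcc
Cnp (chr11:100574689-100574938, plus strand): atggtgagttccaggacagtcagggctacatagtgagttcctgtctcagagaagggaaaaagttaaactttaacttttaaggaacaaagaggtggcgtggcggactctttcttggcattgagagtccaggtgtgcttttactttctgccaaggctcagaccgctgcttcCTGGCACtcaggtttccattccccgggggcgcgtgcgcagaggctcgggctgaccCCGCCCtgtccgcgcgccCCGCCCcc
Mobp (chr9:120149492-120149741, plus strand): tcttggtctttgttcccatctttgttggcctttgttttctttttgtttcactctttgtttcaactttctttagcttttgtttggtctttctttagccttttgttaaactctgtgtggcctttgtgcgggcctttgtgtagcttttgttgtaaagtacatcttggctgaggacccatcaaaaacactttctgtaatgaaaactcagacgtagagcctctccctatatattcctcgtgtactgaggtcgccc
In Mog the motif lies on the opposite strand and begins 83 bases before the start, in Mag it begins 9 bases and in Cnp 81 bases before the start. For Cnp this start of the promoter lies 30 bases past the annotated start of the gene. The GC boxes of Cnp, beginning 26 and 8 bases before the promoter start, thus lie inside the annotated gene. A match is a stretch of letters and says nothing of binding in these cells.

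The values are log2 gene signals on a scale where the median gene of every library is 5.63 and the lowest gene of a kept library lies between 1.23 and 1.92. Since signals are not scaled to gene length, each gene is compared only with itself. The preparations were rich in microglial RNA: Cx3cr1, the fractalkine receptor of microglia, had group means between 13.1 and 13.93. Mbp, Mag, Cnp and Mal were more than 3 fold above the lowest gene in all 28 libraries. Mog and Opalin were within 3 fold of the lowest gene in 9 libraries each, Cldn11 in 5, Mobp in 3 and Ermn in 2, so that their low values carry little weight. In bulk libraries, fewer cells or fragments of a type and less RNA in each cannot be told apart.

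Most members varied more between replicates than other genes did. The SD within groups, pooled over the 8 groups, was 1.41 for Cldn11, 1.28 for Opalin, 1.18 for Mobp, 1.0 for Mog, 0.97 for Ermn, 0.75 for Mal and 0.66 for Mbp. The median over all genes was 0.23, and between 88.0% (Mbp) and 99.9% (Cldn11) of genes had a smaller SD than these 7 members. Mag (SD 0.22) and Cnp (0.28) were the exceptions, with 47.5% and 58.7% of genes below them. These shares are over genes of every signal level, and genes with signals as low as those of the members were not compared apart. The same gene in the same group could thus differ by more than any genotype difference described here: in WT microglia at 8 months, Mobp was 8.44, 6.20 and 5.04 in replicates 1, 2 and 3.

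**Figure D1:**
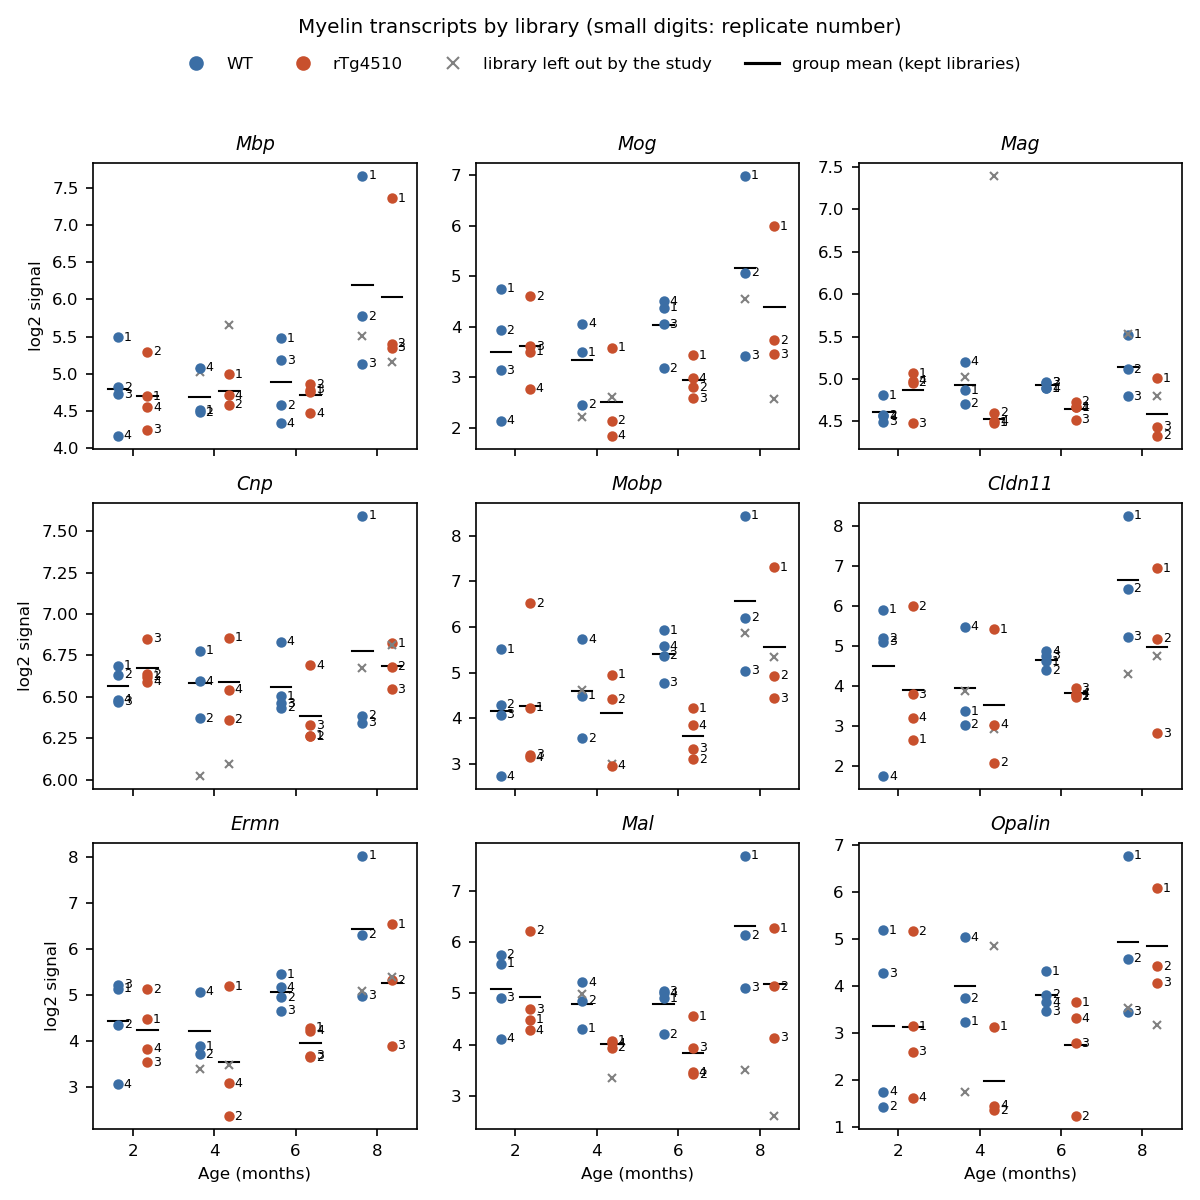
Log2 signal (vertical axis, a separate scale for each gene) of the 9 myelin transcripts against age in months, with WT libraries in blue and rTg4510 libraries in red, replicate numbers beside the points, black bars at the group means of the kept libraries and grey crosses for the 4 libraries that the study left out. Replicate 1 at 8 months is the highest kept library of its group for all 9 genes in both genotypes, and for Mobp reaches 8.44 in WT and 7.31 in rTg4510.

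At the 4 ages, 0 of 9 members were DEGs between rTg4510 and WT microglia. DEGs needed an FDR under 0.05 (limma, Benjamini-Hochberg over all 18588 genes) and a change above 1.5 fold. By this rule 1.98%, 13.8%, 19.8% and 15.9% of all genes were called at 2, 4, 6 and 8 months. With moderated variances the count was also 0 of 9 at each age. At an unadjusted p under 0.05 there were 0, 1, 1 and 1 members at 2, 4, 6 and 8 months (Mag, Mobp and Mag), against 16.5%, 33.6%, 43% and 35.4% of all genes at the same limit. By sign alone, 5 members were lower and 4 higher at 2 months, 7 were lower at 4 months, and all 9 were lower at 6 and at 8 months, except that centring the libraries on 12 microglia markers, which moved the median of all genes to 0.36 and 0.43, put Mbp, Mag and Cnp above 0 at 6 months and Mbp, Cnp and Opalin at 8 months. The 12 markers were themselves lower in rTg4510 (median -0.52 and -0.53, with 4 of 12 called lower at 6 and at 8 months). Centring on them therefore raises every gene of the comparison by the same amount. Leaving out 1 library turned the sign of Mbp at 6 months (WT replicate 1) and of Mbp, Mog, Cnp and Opalin at 8 months (all 4 without WT replicate 1 of that age, at 0.59, 0.14, 0.32 and 0.84). The median log2 fold change of the members was -0.03, -0.49, -0.95 and -0.77 at 2, 4, 6 and 8 months, and the median of all genes lay between -0.04 and 0.01. Since the members moved together from library to library, 9 genes with the same sign are not 9 separate observations.

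At 2 months the genotypes overlapped in every member. Mbp was 5.49, 4.82, 4.73 and 4.16 in WT and 4.69, 5.30, 4.24 and 4.55 in rTg4510 replicates 1 to 4, a log2 fold change of -0.10 ± 0.47 (SE, n = 4 and 4). For Mag the values were 4.81, 4.57, 4.49 and 4.56 in WT and 5.07, 4.96, 4.48 and 4.98 in rTg4510, with 3 of 4 rTg4510 libraries above all WT libraries. The log2 fold change of Mag was 0.26 ± 0.16, with a 95% confidence interval from -0.06 to 0.59 and an FDR of 0.444. Cldn11 had the largest difference, -0.58 ± 1.0, over WT values of 5.91, 5.20, 5.11 and 1.75 and rTg4510 values of 2.66, 6.0, 3.79 and 3.20, and its interval ran from -2.66 to 1.5. The other 6 members lay between -0.20 and 0.13. A separation of all libraries of the genotypes was seen in 0 of 9 members and in 11% of all genes.

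At 4 months, all rTg4510 libraries were below all WT libraries for Mag, Mal and Opalin, 3 of 9 members, against 36.6% of all genes that did not overlap in either direction. Opalin was 3.24, 3.73 and 5.04 in WT and 3.14, 1.35 and 1.45 in rTg4510 replicates 1, 2 and 4. The log2 fold change was -2.03 ± 1.04 (n = 3 and 3, FDR 0.181), but 2 of the 3 rTg4510 values were within 3 fold of the lowest gene of their library. Mal was 4.31, 4.86 and 5.22 in WT and 4.08, 3.94 and 4.03 in rTg4510, the rTg4510 libraries lying close together (-0.78 ± 0.62, FDR 0.408). For Mag, WT libraries were at 4.87, 4.71 and 5.21 and rTg4510 libraries at 4.48, 4.60 and 4.5, a difference of -0.40 ± 0.18 with an FDR of 0.122. In the exact permutation test (two-sided) these 3 genes reached p = 0.1, the smallest that 3 against 3 libraries allow and the value that complete separation fixes. Mbp (0.07 ± 0.54) and Cnp (0.01 ± 0.23) differed little in the mean, with intervals from -1.06 to 1.20 and from -0.47 to 0.48. Mog (-0.82), Ermn (-0.68), Mobp (-0.49) and Cldn11 (-0.45) were lower on average, with overlapping libraries and intervals that reached above 0.

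At 6 months, Mag, Mobp, Cldn11 and Ermn separated completely, 4 of 9 members against 32.8% of all genes. Mobp was 5.93, 5.38, 4.78 and 5.58 in WT and 4.22, 3.10, 3.33 and 3.85 in rTg4510 replicates 1 to 4. Every rTg4510 library was thus below every WT library, with a log2 fold change of -1.79 ± 0.84 (n = 4 and 4), a 95% confidence interval from -3.54 to -0.05, an unadjusted p of 0.0445 and an FDR of 0.106. Ermn was 5.45, 4.95, 4.66 and 5.17 in WT and 4.28, 3.64, 3.68 and 4.23 in rTg4510 (-1.10 ± 0.68, FDR 0.232). Cldn11, the claudin, was 4.62, 4.40, 4.76 and 4.87 in WT and 3.77, 3.73, 3.95 and 3.81 in rTg4510. Its difference of -0.85 was large beside the SDs of 0.20 and 0.09 within these groups, but not beside the pooled SD over all ages that the model uses (SE 1.0, FDR 0.548). When only the 8 libraries of this age entered the model, Cldn11, Mobp and Ermn were called lower (FDR 0.00295, 0.0129 and 0.0197), 3 of 9 members against 6.81% of all genes called lower in that model. Mag was 4.89, 4.96, 4.96 and 4.89 in WT and 4.67, 4.73, 4.52 and 4.67 in rTg4510, a small but complete separation (-0.28 ± 0.16, FDR 0.176). The exact permutation test (two-sided) gave p = 0.029 for each of these 4 genes, the smallest value that 4 against 4 libraries allow. Complete separation fixes this p, so it restates the separation, and it is not adjusted for the members and ages compared.

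The other 5 members at 6 months overlapped. Mog was 4.38, 3.19, 4.05 and 4.5 in WT and 3.44, 2.81, 2.58 and 2.98 in rTg4510, with 1 WT library below the highest rTg4510 library (-1.08 ± 0.71, FDR 0.261). Mal was 4.90, 4.21, 5.04 and 5.0 in WT and 4.55, 3.42, 3.94 and 3.46 in rTg4510 (-0.95 ± 0.53, FDR 0.185). Opalin was 4.32, 3.81, 3.46 and 3.65 in WT and 3.66, 1.23, 2.78 and 3.31 in rTg4510, where the spread was wide (-1.07 ± 0.90). The mean of Mbp was 4.89 ± 0.53 (SD) in WT and 4.72 ± 0.17 in rTg4510, and that of Cnp 6.56 ± 0.19 and 6.39 ± 0.21, differences smaller than the spread between replicates. Comparing the libraries that share a replicate number, rTg4510 was lower than WT in 4 of 4 pairs for 8 members, and in 2 of 4 pairs for Mbp. Pairs were not counted over all genes, so this does not set the members apart from other genes. For Mag, Mobp, Cldn11 and Ermn, which separated completely, any pairing gives 4 of 4. At this age same-numbered libraries also deviated together across all genes, so the numbers were taken to pair them, although 1 pair fell just under the limit of 0.1 when every gene was first scaled to the same variance (r = 0.0948). With the replicate number as a block, Mal was called lower (SE 0.26, FDR 0.0184), 1 of 9 members, against 8.81% of all genes called lower in that model. The model blocked all 4 ages and shared its spread over them. Its SE thus also rests on same-numbered libraries of 2 and 4 months, which were not taken as paired. Mobp (FDR 0.0514), Mag (0.061) and Mog (0.0814) were nearest to the threshold after Mal.

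**Figure D2:**
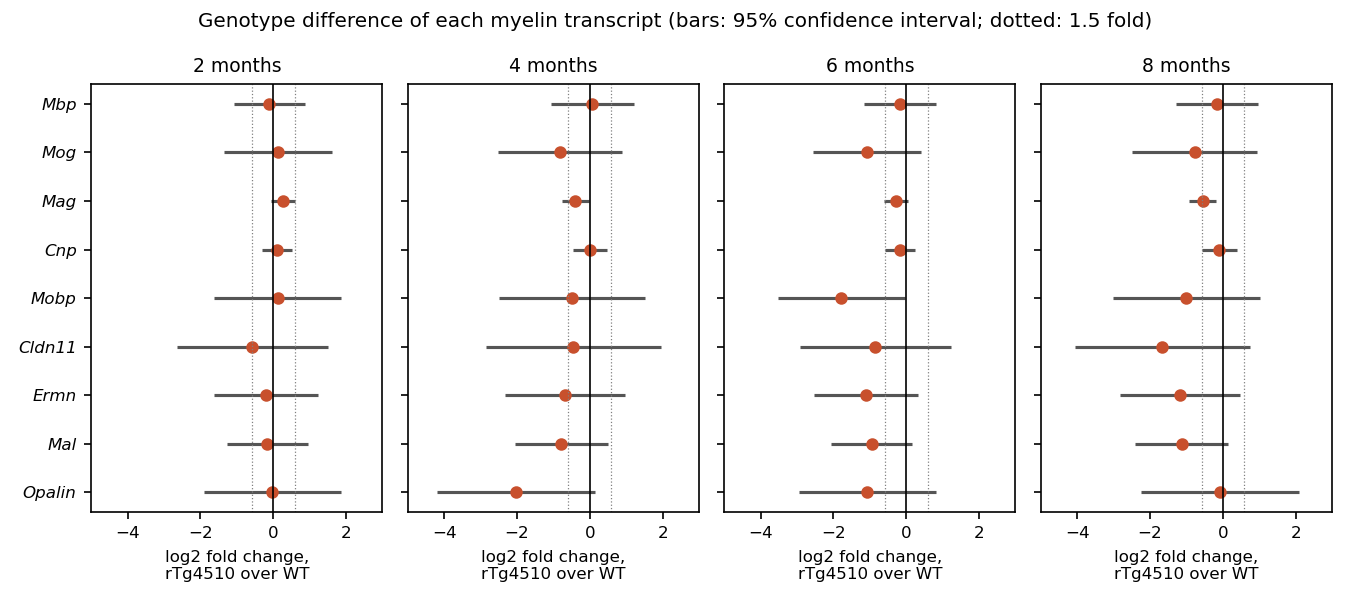
Log2 fold change of each myelin transcript in rTg4510 over WT microglia (horizontal axis, points) with its 95% confidence interval (bars) at 2, 4, 6 and 8 months, with the 1.5-fold limits dotted. All 9 points are left of 0 at 6 and 8 months, except after centring on microglia markers for Mbp and Cnp at both ages, Mag at 6 and Opalin at 8 months. The interval leaves out 0 for Mag at 4 and 8 months and for Mobp at 6 months.

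At 8 months group means were the highest of the 4 ages for all 9 members in WT microglia and for 8 of 9, all but Mag, in rTg4510 microglia. The genotypes overlapped in all 9, while 36.7% of all genes did not overlap. Mag was 5.52, 5.12 and 4.80 in WT and 5.01, 4.33 and 4.44 in rTg4510 replicates 1, 2 and 3. It was the member with the smallest FDR (-0.55 ± 0.18, n = 3 and 3, 95% confidence interval -0.93 to -0.18, FDR 0.0266), but the change was 1.47 fold and fell under the limit of 1.5 fold. Without rTg4510 replicate 1 or without WT replicate 3 at 8 months, Mag passed both limits (log2 fold change -0.76 and -0.73). Mobp was 8.44, 6.20 and 5.04 in WT and 7.31, 4.94 and 4.44 in rTg4510 (-1.0 ± 0.97, FDR 0.498). For Cldn11, WT libraries were at 8.27, 6.44 and 5.24 and rTg4510 libraries at 6.96, 5.19 and 2.82. This was the largest difference at this age, -1.66 ± 1.15, and its interval ran from -4.06 to 0.74. Mbp was 7.67, 5.77 and 5.13 in WT and 7.36, 5.40 and 5.35 in rTg4510, a small mean difference (-0.15 ± 0.54, interval -1.28 to 0.98).

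Replicate 1 was the highest and replicate 3 the lowest 8-month library of both genotypes for 8 members, all but Mag. Ermn was 8.03, 6.31 and 4.98 in WT and 6.53, 5.32 and 3.90 in rTg4510, and Mal 7.69, 6.14 and 5.11 and 6.27, 5.14 and 4.14. In 3 of 3 same-numbered pairs rTg4510 was lower for Mag, Mobp, Cldn11, Ermn and Mal, again without a count over all genes. With the replicate block Mal was called lower (-1.13, SE 0.30, FDR 0.0199), 1 of 9 members, against 5.64% of all genes called lower. Without the block its FDR was 0.201. Mag had an FDR of 0.00645 with the block and stayed under 1.5 fold. Mog was 6.99, 5.07 and 3.43 in WT and 5.99, 3.73 and 3.46 in rTg4510, Opalin 6.78, 4.58 and 3.45 and 6.08, 4.43 and 4.07, and Cnp 7.60, 6.39 and 6.34 and 6.82, 6.68 and 6.54, with differences of -0.77, -0.08 and -0.09. Cnp overlaps Dnajc7 in the annotation, Mbp overlaps Rpl21-ps8 and Gm52337, and the counting is not stated to use strand, so reads of overlapping genes may not be fully separable.

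Between 2 and 8 months the myelin signal was higher in all 9 members in WT microglia, but none passed the threshold. The log2 fold changes ran from 0.21 (Cnp) to 2.41 (Mobp), with a median of 1.67 against -0.04 for all genes. Mbp (1.39 ± 0.51, FDR 0.129), Mobp (2.41 ± 0.90), Ermn (2.0 ± 0.74), Mog (1.67 ± 0.77), Mal (1.22 ± 0.58) and Mag (0.54 ± 0.17, FDR 0.0742) had an unadjusted p under 0.05, 6 of 9 members against 19.2% of all genes in either direction. At the threshold for DEGs, 0 of 9 members and 0.533% of all genes were called higher. In rTg4510 microglia 8 of 9 members were higher at 8 than at 2 months, with a median of 1.01 and 0 of 9 called, against 5.72% of genes called higher. Mbp was nearest to the threshold (1.34 ± 0.51, FDR 0.0658), and Mag was the member that was lower (-0.28 ± 0.17), except after centring on the microglia markers (0.26, beside 0.51 for the median of all genes). All members at 4 and 6 months also missed the threshold against 2 months in both genotypes, and these comparisons share the libraries of 2 months.

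The size of the change with age depended on 1 pair of libraries. Without replicate 1 of both genotypes at 8 months, a choice made after seeing the data, the median log2 fold change from 2 to 8 months was 0.76 in WT and 0.09 in rTg4510 microglia. The median genotype difference at 8 months was -0.66 without that pair and -0.77 with it. Mobp in WT changed by 1.47 without it, and Mbp by 0.65. Markers of several other cell types also had higher mean signals at 8 than at 2 months in WT, namely 11 of 12 astrocyte markers (median log2 fold change 0.98), 6 of 6 precursor markers (0.86), 4 of 4 erythroid markers (0.69) and 6 of 8 neuron markers (0.60), with 0 of them called. In rTg4510 these medians were 0.58, 0.49, 0.0036 and -0.10, with 1 astrocyte, 1 precursor and 1 neuron marker called higher and 1 astrocyte and 1 neuron marker called lower. Of the endothelial markers, 9 of 11 were higher in WT (median 0.20) and 2 of 11 in rTg4510 (-0.31). In rTg4510 1 of them was called higher and 1 lower. Of the other myelin and mature oligodendrocyte genes, 27 of 29 were higher in WT (1.05) and 26 of 29 in rTg4510 (0.79). Called higher were 1 (Anln) and 3 (Anln, Prr5l and Gsn), beside 0.533% and 5.72% of all genes. The lineage factors were higher in 8 of 8 (1.46) and 6 of 8 (0.76), with 0 called. The microglia markers had the opposite sign: 0 of the 12 were higher at 8 than at 2 months in either genotype, and their median change was -0.31 in WT and -0.60 in rTg4510 microglia. When the libraries were centred on these 12 genes, which moved the median of all genes to 0.28 in WT and 0.51 in rTg4510 at 8 against 2 months, Mbp, Mag, Mobp and Ermn were called higher in WT, 4 of 9 members against 5.75% of all genes, and Mbp in rTg4510, 1 of 9 against 32.2% of all genes. The centring adds the same amount to every gene of a comparison, so it leaves the members where they were beside other genes.

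Mag was the one member whose genotype difference changed with age beyond the threshold, and this call was lost with all 32 libraries (FDR 0.617), with only the groups of the contrast (0.157) and with centring on microglia markers (0.218). The mean of Mag was higher in rTg4510 than in WT at 2 months and lower at 8 months, with neither difference called. The change between these ages was -0.82 ± 0.24 (95% confidence interval -1.31 to -0.32, FDR 0.0317). Lower changes were called in 1.85% of all genes in this comparison, and this was 1 of 9 members. The same change was -0.66 ± 0.24 from 2 to 4 months (FDR 0.101) and -0.54 ± 0.22 from 2 to 6 months (FDR 0.116), neither called, where 0.893% and 2.97% of all genes were called lower. The 3 changes share the 2-month libraries. In WT the mean of Mag was 4.61 ± 0.14 (SD), 4.93 ± 0.25, 4.93 ± 0.04 and 5.15 ± 0.36 at 2, 4, 6 and 8 months, and in rTg4510 4.87 ± 0.27, 4.53 ± 0.06, 4.65 ± 0.09 and 4.59 ± 0.36. The call was held in 19 of 28 models that left out 1 library, with changes from -1.02 to -0.63, and was lost without any of rTg4510 replicates 1, 2 and 4 or WT replicates 2, 3 and 4 at 2 months, rTg4510 replicates 2 and 3 or WT replicate 1 at 8 months. From 2 to 8 months the genotype difference of Mag changed by -0.86 with all 32 libraries. With only the groups of the contrast it changed by -0.82, and with centring by -0.59. The fit of 32 libraries takes its spread from every group, including the left-out rTg4510 library of 4 months with Mag at 7.40. The part of that library in the lost call was not tested. The other 8 members had changes from 2 to 8 months between -1.12 (Mobp) and -0.05 (Mbp), all missing the threshold.

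The myelin transcripts moved together from library to library. After the mean of each group was subtracted, the 36 pairs of members correlated over the 28 libraries with a Pearson r between 0.40 (Mag with Cnp) and 0.896 (Mog with Mobp), and a median of 0.732. Among the 21 pairs without Mag and Cnp the lowest was 0.685. Without replicate 1 of 8 months the median over the members was 0.661. The mean deviation of the 9 members was 1.42 in WT replicate 1 and 1.20 in rTg4510 replicate 1 at 8 months, and 1.13 in rTg4510 replicate 2 at 2 months. It was lowest in WT replicate 3 at 8 months (-1.18), WT replicate 4 at 2 months (-1.12) and rTg4510 replicate 3 at 8 months (-0.93). All 9 members were above their group mean in both replicate 1 libraries at 8 months, and 0 of 9 in both replicate 3 libraries. These correlations describe libraries of unknown depth and carry no p.

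**Figure D3:**
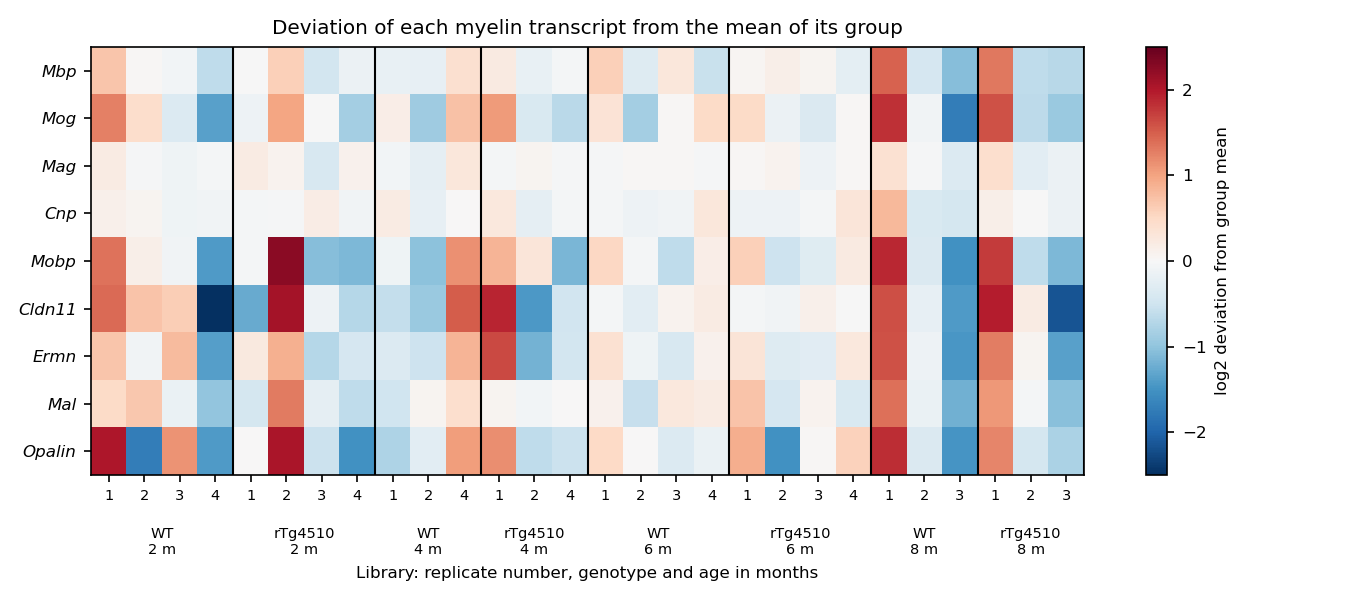
Deviation of each myelin transcript (rows) from the mean of its group on the log2 scale (colour, red above and blue below) in each of the 28 libraries (columns, by replicate number within genotype and age). Columns tend to be of 1 colour: replicate 1 at 8 months is red for all 9 genes in both genotypes, with a mean deviation of 1.42 in WT, while Mag (-0.39 to 0.42) and Cnp are mostly pale, with Cnp at 0.82 in that WT library.

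Genes outside the 9 also tracked them closely. Over the same 28 libraries, high r to the mean deviation of the members was found for Ptprd (0.955), Tmem88b (0.921), Fa2h (0.918), Gpr37 (0.915), Ugt8a (0.90), Ncam1 (0.897), Car2 (0.896), Aplp1 (0.888) and Fez1 (0.885). Of these 9 genes, 5 were on the lists of other myelin genes (Tmem88b, Gpr37 and Car2) or of myelin lipid enzymes (Fa2h, which makes hydroxylated fatty acids, and Ugt8a, which makes galactosylceramide). Without replicate 1 of 8 months, r was between 0.84 (Fez1) and 0.943 (Ptprd).

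The mean deviation of other lists followed that of the members to different degrees. Pearson r was 0.97 for 29 other myelin and mature oligodendrocyte genes, 0.957 for 6 myelin lipid enzymes and 0.943 for 8 transcription factors of the oligodendrocyte lineage. It was 0.758 for 12 astrocyte markers, 0.732 for 4 erythroid markers, 0.702 for 8 neuron markers and 0.66 for 6 oligodendrocyte precursor markers. Endothelial markers (-0.118, 11 genes) and the 2 peripheral myelin markers that were measured (0.135) showed little of it, and the 12 microglia markers moved against it (-0.576). The summed signal (log2) of the neuron markers ranged from 6.57 to 8.69 over the libraries, that of the astrocyte markers from 9.61 to 12.02 and that of the microglia markers from 14.5 to 15.31. How near single genes of these lists lay to the lowest gene of a library was not counted, so their low values may carry little weight. The part of these other cell types in the myelin results was not tested.

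**Figure D4:**
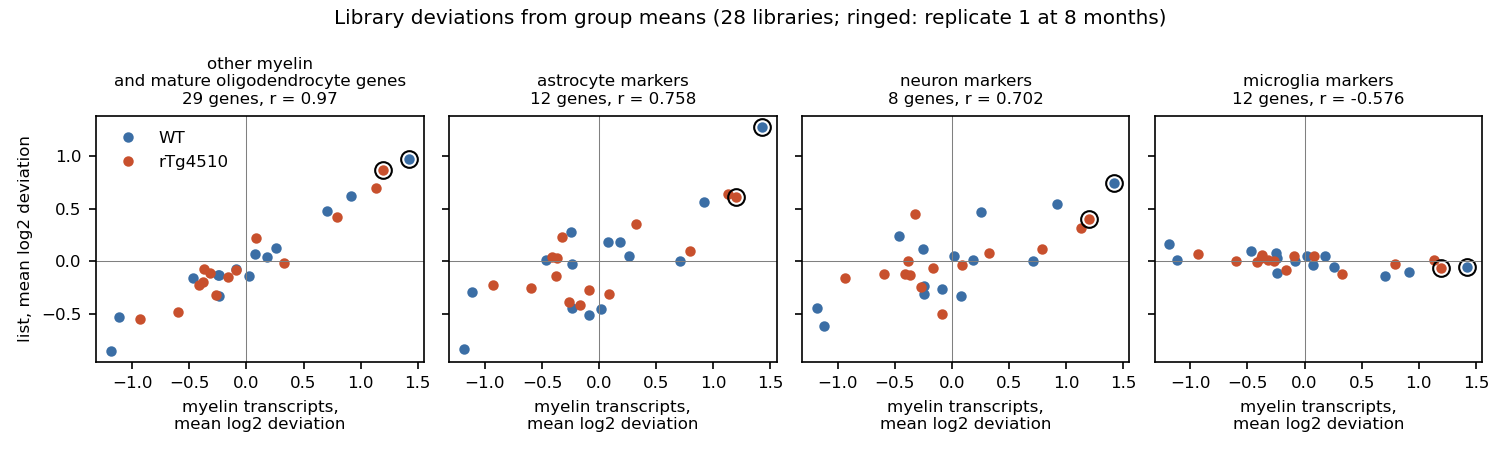
Mean log2 deviation from the group mean of 4 gene lists (vertical axes) against that of the 9 myelin transcripts (horizontal axes) in 28 libraries, blue for WT and red for rTg4510, with replicate 1 of 8 months ringed and Pearson r above each panel. Other myelin genes lie along a line (r = 0.97), astrocyte (0.758) and neuron markers (0.702) rise with more scatter, and microglia markers fall slightly (-0.576).

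Of the 98 measured genes on the other 10 lists, the share called from the youngest to the oldest age was 1.02%, 10.2%, 23.5% and 16.3%, beside 1.98%, 13.8%, 19.8% and 15.9% of all genes. Of the 29 other myelin and mature oligodendrocyte genes, 0 were called at 2 months. At 4 and 6 months 3 were called higher, namely Trf (transferrin), Prr5l and Gsn (gelsolin), and at 8 months Trf and Prr5l. The log2 fold changes of Prr5l were 1.88 ± 0.26, 1.71 ± 0.23 and 1.76 ± 0.26 at 4, 6 and 8 months (FDR 1.29e-05, 3.95e-06 and 2.31e-05). Called lower were Nfasc, which anchors the myelin loops beside the node, at 4 months (-2.12 ± 0.48, FDR 0.00222) and 8 months (-1.52 ± 0.48, FDR 0.0227), Sept4 at 6 months (-1.30 ± 0.40, FDR 0.015) and Adamts4 at 8 months (-1.94 ± 0.64, FDR 0.0287). The median of this list was -0.38, -0.72, -0.75 and -0.77 at 2, 4, 6 and 8 months, beside -0.03, -0.49, -0.95 and -0.77 for the 9 members. With the replicate block 6 and 2 of the 29 were called lower at 6 and 8 months, where 8.81% and 5.64% of all genes were called lower. At these ages 3 and 2 were called higher. At 4 months, where the numbers were not taken to pair libraries, 2 were called lower and 2 higher. For the higher calls and for 4 months no share of all genes was computed, so these counts cannot be set beside other genes.

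The median log2 fold change at 6 and 8 months was below 0 for every other list but the 2 peripheral myelin markers (0.24 and 0.48). It was -1.17 and -0.83 for erythroid, -0.80 and -0.87 for precursor and -0.79 and -0.64 for endothelial markers, -0.84 and -0.74 for lineage factors and -0.85 and -0.23 for lipid enzymes. Of the 6 myelin lipid enzymes, Sgms2 alone was called (lower at 6 months, -1.18 ± 0.35, FDR 0.013), and of the 8 lineage factors 0 at any age, with Sox10 at -0.76 ± 0.98 and Myrf at -0.52 ± 0.60 at 6 months. Of the 12 astrocyte markers Aqp4 and Slc1a3 were called lower and Gfap higher at 6 and 8 months, together with Slc1a2 lower at 8 months. The median of the astrocyte list was -0.67 at 6 months and -0.85 at 8 months, and that of the 8 neuron markers -0.95 and -0.92, with Snap25 and Syn1 called lower at 6 months. Of the 11 endothelial markers, 3 were called lower (Pecam1, Cdh5 and Ly6c1) and 1 higher (Flt1) at 6 months, of the 6 precursor markers 1 lower (Pdgfra) and 2 higher (Cspg4 and Vcan), of the 4 erythroid markers 1 lower (Alas2), and of the 2 peripheral myelin markers Pmp22 higher. Of the 12 microglia markers 10 had a lower mean at 6 months and 4 were called lower (Tmem119, Itgam, Gpr34 and Sall1), with a list median of -0.52. At 8 months 1 precursor marker was called, Cspg4, which was higher (2.63 ± 0.23, FDR 1.61e-08). Of the endothelial markers Pecam1 was called lower and Flt1 higher at that age. Pmp22 was called higher and 4 microglia markers lower (Tmem119, Fcrls, Gpr34 and Sall1), with 0 erythroid and 0 neuron markers called. The median of the 9 members, with 0 of 9 called, was below 0 at 6 and 8 months. So were the medians of neuron, astrocyte, precursor, endothelial, erythroid and microglia markers, and whether one accounts for the other was not tested.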

How the data were processed

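Microglia RNA from 28 kept libraries was analysed, with the 4 libraries that the study left out after quality control used as an alternative only. The deposited values are log2 signals that the authors made from exon reads: an exon was dropped if it had under 10 counts in over 80% of the samples, exons of a gene were combined by a robust linear model, and log2 signals were median normalized. The submitters' processing notes name GRCm38, and the aligner and annotation are not given in the sources used here. No read totals were used, so depth is unknown and no counting interval was computed, and the number of libraries limits the precision. 0 columns of values were left unused. Entrez numbers were matched to RefSeq symbols (GRCm38.p6), which were found for 95.91% of them.

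Computed here with limma 3.58.1 in R 4.3.3 was a linear model per gene of 8 group means with unmoderated variance (20 residual degrees of freedom), the contrasts of genotype, age and their interaction, and Benjamini-Hochberg FDR over all genes. Single genes were compared with exact permutation tests. The model was tested on simulated data. Promoters were searched in Python 3.11.15 with pandas 2.3.3, and figures drawn with matplotlib 3.10.9. Alternatives were all 32 libraries, moderated variance, only the groups of a contrast, quantile normalization, a filter at the 25th percentile of mean signal, centring on microglia markers, FDR alone, a replicate block and leaving out each library. Named are all members, at most 3 called genes of each other list and contrast by size of change (where 5 or fewer were called all are named, chosen after their values were seen), and genes among the 10 most alike the members. Some results under this rule are not reported here. Members and lists were chosen with earlier results of these data known. Replicates are separate pools by the study's account. The 36 pairs of libraries within a group correlated with r from 0.9359 to 0.9661, with at most 45 genes of the same value, so no library was counted as deposited more than once.

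Labels give both genotypes the same replicate numbers. Over all genes, the deviations of 2 libraries with 1 number from their own group means had an r from 0.131 to 0.153 at 6 months and from 0.15 to 0.291 at 8 months, where the numbers were taken to pair libraries on the values alone. At 2 months (0.0649 to 0.167) and 4 months (-0.0999 to 0.124) not every pair passed 0.1. With every gene scaled to the same variance, tried as well, r ran from 0.0256 to 0.163, -0.115 to 0.0953, 0.0948 to 0.165 and 0.134 to 0.226 at 2, 4, 6 and 8 months, so the pairing at 6 months rests on the unscaled values.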

Additional observations from a re-analysis of the deposited data

Results flagged for a closer look

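The mean of Mag was lower in rTg4510 than in WT microglia at 8 months and higher at 2 months, with neither difference called. The test of the change of this difference between ages passed the threshold (log2 change -0.8165, FDR 0.0317, limma over all genes). Its alternatives gave changes from -1.02 to -0.59 with FDRs from 0.00592 to 0.617.

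In the rTg4510 replicate 3 library of 4 months, which the study left out after quality control, Mag was 7.40 and Mbp 5.65, above the highest kept WT library of that age (5.21 and 5.08), and Opalin (4.85) was above the kept range of its own group. Mal (3.34) and Cnp (6.09) were below the kept range of their group in the same library, so the members did not move together there.

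Among 36 sets of 4 libraries (9 members in the 4 groups of 2 and 6 months) 3 held a library far from the others by Dixon's test, and chance flags about 1 in 20 sets. Cnp was 6.85 in rTg4510 replicate 3 at 2 months and 6.69 in rTg4510 replicate 4 at 6 months, each above the other 3 libraries. Mal was 4.21 in WT replicate 2 at 6 months, below the other 3.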

How the results depend on the processing

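At 2, 4, 6 and 8 months 0 of 9 members were called between genotypes, and other settings moved this as follows: 3 members at 6 months with only the groups of the contrast, 1 at 6 and 1 at 8 months (Mal) with the replicate block, and 1 at 8 months (Mag) with the FDR alone. The block changed no other call between genotypes. From 2 to 8 months, centring on microglia markers called 4 members in WT and 1 in rTg4510. The 1 call for the change of the genotype difference from 2 to 8 months (Mag) fell to 0 with all 32 libraries, with only the groups of the contrast and with centring on microglia markers. For the change from 2 to 4 months, Mag made 1 call with the replicate block and 1 without both replicate 1 libraries of 8 months, both settings chosen after seeing the data. Leaving out 1 library gave 0 to 1 called members between genotypes at 8 months, 0 to 2 from 2 to 8 months in WT (Mbp and Mag without WT replicate 3 of 8 months), 0 to 1 in rTg4510 (Mbp without rTg4510 replicate 3, WT replicate 1 or WT replicate 3 of 8 months), and 0 to 1 for each change of the genotype difference (Mag from 2 to 4 and from 2 to 6 months without rTg4510 replicate 3 of 2 months). Leaving out 1 library gave 0 in all 28 fits elsewhere.

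The log2 fold change of single members changed sign in 14 of 63 values with centring on microglia markers: at 2 months Mbp (0.12), Ermn (0.020), Mal (0.050) and Opalin (0.19), at 6 months Mbp (0.22), Mag (0.12) and Cnp (0.23), at 8 months Mbp (0.29), Cnp (0.35) and Opalin (0.37), in rTg4510 from 2 to 8 months Mag (0.26) and in the change of the genotype difference from 2 to 8 months Mbp (0.18), Cnp (0.028) and Opalin (0.17). It changed in 9 of 63 without both replicate 1 libraries of 8 months: at 8 months Cnp (0.25) and Opalin (0.23), in WT from 2 to 8 months Cnp (-0.20), in rTg4510 from 2 to 8 months Mog (-0.032), Cnp (-0.061) and Mal (-0.28) and in the change of the genotype difference from 2 to 8 months Mbp (0.028), Cnp (0.14) and Opalin (0.26). With all 32 libraries 2 values changed sign, at 4 months Mag (0.30) and in rTg4510 from 2 to 8 months Mal (-0.38), and with quantile normalization 1 did, in the change of the genotype difference from 2 to 8 months Opalin (0.035). Leaving out 1 library turned 53 of 1764 values, in 23 results. At 2 months these were Mog (-0.32 to 0.55), Mobp (-0.63 to 0.57), Mbp (-0.32 to 0.13), Ermn (-0.66 to 0.061), Opalin (-0.70 to 0.65) and Mal (-0.60 to 0.053). At 4 months these were Mbp (-0.043 to 0.27), Cnp (-0.13 to 0.12), Cldn11 (-1.40 to 0.31) and Mobp (-1.0 to 0.089). At 6 months these were Mbp (-0.36 to 0.022). At 8 months these were Mbp (-0.81 to 0.59), Opalin (-0.82 to 0.84), Mog (-1.64 to 0.14) and Cnp (-0.31 to 0.32). In WT from 2 to 8 months these were Cnp (-0.20 to 0.42). In rTg4510 from 2 to 8 months these were Cnp (-0.061 to 0.079), Mog (-0.032 to 1.23) and Mal (-0.28 to 0.79). In the change of the genotype difference from 2 to 8 months these were Mbp (-0.71 to 0.69), Opalin (-0.79 to 0.87), Mog (-1.77 to 0.0087) and Cnp (-0.41 to 0.21). In 0 of these sign changes was the value past the threshold with or without the alternative. Moderated variance, the groups of the contrast alone, the filter on low signals and the replicate block turned no sign. The filter removed Mog, Cldn11 and Opalin, which have no value under it. Centring adds the same amount to every gene of a contrast. The 12 markers it rests on had lower medians in rTg4510 at each age, and at 8 than at 2 months in both genotypes. The cause of the other changes was not tested. Depth is unknown, and what it limits cannot be judged from log2 signals.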
